A study of Drosophila melanogaster with 4 samples.

Results

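RNA polymerase II (Pol II) occupancy is described here at 3 loci of Drosophila melanogaster that carry early ecdysone puffs: Eip75B (puff 75B), Eip74EF (puff 74EF) and br (puff 2B5). The members were all enriched regions overlapping 3 intervals on FlyBase release 5: 3L from 17940000 to 18065000 for Eip75B (125.001 kb), 3L from 17540000 to 17630000 for Eip74EF (90.001 kb), and X from 1470000 to 1570000 for br (100.001 kb). They numbered 22 of 7517 enriched regions in replicate 1, 20 of 6487 in replicate 2 and 20 of 8273 in the list for the replicate set. The intervals were chosen by the regions seen in these same lists, so the spans, coverage and scores inside them are a description and carry no test. The intervals bear the gene names of the rule. Gene positions on release 5 were not used here, so whether a region covers a start site, an exon or an intron was not analysed.

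The steroid hormone 20-hydroxyecdysone drives moulting and metamorphosis. It binds a receptor made of EcR and Usp, and the receptor switches on a small set of early genes that appear as puffs, decondensed and heavily transcribed bands, on the polytene chromosomes of larval salivary glands. Eip75B encodes nuclear receptors of the E75 group, Eip74EF encodes transcription factors with an ETS DNA-binding domain, and br (the Broad-Complex) encodes zinc-finger transcription factors with a BTB domain. All 3 genes are long and produce several isoforms, in part from different promoters, and their products regulate the late genes of metamorphosis. In the release 6 gene table of RefSeq, used here for names and neighbours only, Eip75B lies between the protein-coding genes CG5290 and CG44006 and overlaps CG32192 and CG42393. Eip74EF lies between CycT and Vps60. In the same table br lies between inc and dor and overlaps Mur2B. Regions near the ends of the intervals can therefore belong to these neighbours.

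The assay was ChIP-seq, in which chromatin bound by Pol II is pulled down with an antibody and sequenced. Nuclei came from Oregon-R larvae, a wild-type strain, of the third and last larval instar, with 2 Pol II ChIP replicates and 2 input libraries (chromatin with no antibody step). The labels name the antibody's target and maker, and give neither the age within the instar nor a tissue. The nuclei may come from several tissues, and in such bulk chromatin fewer cells with Pol II at a locus and less Pol II per cell cannot be told apart. The labels do not say whether the replicates were collected separately, and their spread may thus be technical. Each region carries 1 score on the log2 scale, taken here to be the ratio of ChIP to input reads with a constant added that differs between lists. Folds are 2 to the power of the score, with 95% intervals that cover counting error only. The read numbers behind a score can be recovered only in lowest terms, which makes these intervals too wide rather than too narrow. Scores are ranked within a list, and the median score was 0.78 in replicate 1, 1.04 in replicate 2 and 0.62 in the replicate set. Total library depth is unknown. Summed over a whole list, the recovered lower limits for ChIP were 5.06 M reads (M stands for 1e6) in replicate 1 and 4.70 M in replicate 2, and those for input were 1.97 M and 1.93 M.

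Eip75B carried 1 very long Pol II block in the lower-numbered part of its interval and a narrow, strong region 60.1 to 66.1 kb beyond it in the replicates. In replicate 1 the block ran from 17946058 to 17987702 (41.6 kb) with a score of 1.42, a 2.67-fold enrichment (95% counting interval 2.59 to 2.76). A region of 5.68 kb with a score of 1.72 (3.30-fold, 2.47 to 4.41) followed it after a break of 346 bp, up to 17993728. In replicate 2 the block was 1 region from 17942320 to 17993686 (51.4 kb) with a score of 1.51, which is 2.84-fold (2.73 to 2.96). It was the widest of all regions in both replicates, and, with the 5.68 kb region counted in, occupied sequence ended at 17993728 in replicate 1 and at 17993686 in replicate 2. The replicate set placed it from 17945794 to 17993738 at 2.81-fold (2.75 to 2.87), and there it ranked 3 in width.

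The highest score of the Eip75B interval belonged to a region of only 2.17 kb in replicate 1, from 18053775 to 18055944. Its score was 2.00 there (4.01-fold, 3.09 to 5.19), 2.68 in replicate 2 (6.43-fold, 5.35 to 7.71) and 2.34 in the replicate set (5.06-fold, 3.79 to 6.75). Its start differed by at most 34 bp and its end by at most 8 bp among the 3 lists. From the end of the block as called in replicate 2, 60.1 kb separated the block from this region, and 1 region of 1.97 kb with a score of 0.39 lay between. The other regions of the interval in the replicates were narrow and scored below the median of their list. In replicate 1 the 6 others were 1311 to 2008 bp wide, with scores of 0.08 to 0.72. In replicate 2 the 3 others were 1571 to 2038 bp wide, with scores of 0.19 to 0.78.

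**Figure D1:**
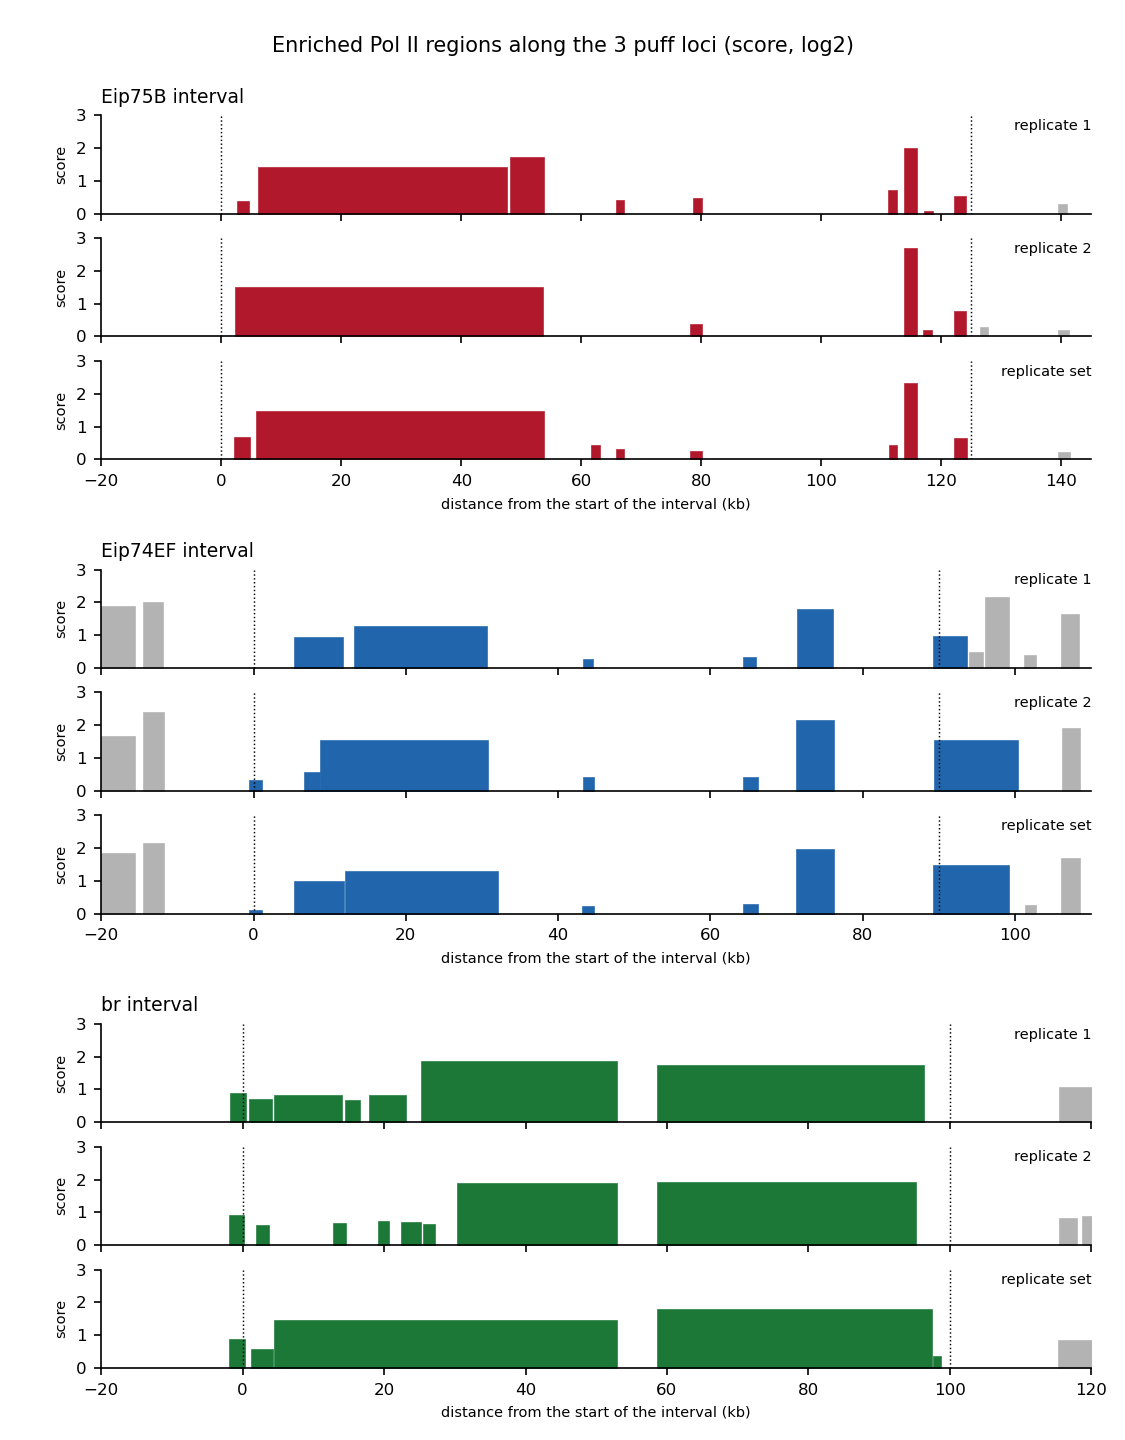
Enriched regions along the Eip75B, Eip74EF and br intervals in replicate 1, replicate 2 and the replicate set. The horizontal axis is the distance from the start of the interval in kb, the height of each bar is the region's score (log2), coloured bars are regions of the locus, grey bars are other regions, and dotted lines are the ends of the interval; at Eip75B a block (41.6 kb wide in replicate 1, 51.4 kb in the second) stands apart from a strong region of 2.17 kb, and at br 2 blocks are separated by a break of 5.55 to 5.65 kb.

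Eip74EF had the same order of parts in these lists, with a shorter block and a wider strong region. The widest region ran from 17553160 to 17570704 (17.5 kb) in replicate 1, at a score of 1.26 (2.40-fold, 2.12 to 2.72). In replicate 2 it ran from 17548729 to 17570757 (22.0 kb), at a score of 1.54 (2.90-fold, 2.77 to 3.03). The replicates ended the block at nearly the same base and differed in its start. Ahead of the block, replicate 1 listed a separate region, from 17545278 to 17551790, with a score of 0.93. Replicate 2 listed 2 there, from 17546575 to 17548682 with a score of 0.57, only 46 bp before the block, and from 17539376 to 17541074 with 0.32. In the replicate set the block spanned 20.1 kb, from 17551980 to 17572102, at 2.46-fold (2.38 to 2.54).

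The highest score of the Eip74EF interval lay 40.6 kb beyond the block in replicate 1 and 40.5 kb in replicate 2. This region, from 17611309 to 17616088 in replicate 1 (4.78 kb), had a score of 1.80 (3.49-fold, 3.18 to 3.83). In replicate 2 it had 2.15 (4.44-fold, 4.07 to 4.85), and in the replicate set 1.964 (3.90-fold, 3.66 to 4.16). The replicates placed its start 16 bp apart and its end 133 bp apart. Between the block and this region each list held 2 narrow regions, at 17583214 to 17584541 and 17604252 to 17606014 in replicate 1. Their scores were 0.27 and 0.33 in replicate 1, and 0.42 for both in replicate 2. At the high-numbered edge, a region began at 17629277 in replicate 1 and at 17629381 in replicate 2 and ran past the end of the interval. It was 4.44 kb wide in replicate 1 (score 0.97) and 11.004 kb in replicate 2 (score 1.55), where it overlapped 3 regions of replicate 1.

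The br interval differed in its layout: most of it was occupied, in 2 long blocks side by side. The second block ran from 1528599 to 1566397 in replicate 1 (37.8 kb), at a score of 1.76 (3.38-fold, 3.197 to 3.57). In replicate 2 it ran from 1528586 to 1565243 (36.7 kb), at 1.92 (3.79-fold, 3.54 to 4.06). The first block covered 1495274 to 1522953 in replicate 1 (27.7 kb), at 1.88 (3.68-fold, 3.35 to 4.04), and 1500367 to 1522964 in replicate 2 (22.6 kb), at 1.90 (3.74-fold, 3.56 to 3.93). The blocks were parted by a break, 5.65 kb long in replicate 1 and 5.62 kb in the second. In the replicate set it measured 5.55 kb, and over the 3 lists its start varied by 33 bp and its end by 65 bp.

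Ahead of the first block, br was called in pieces that the lists cut differently. In replicate 1, 5 regions from 1468167 to 1493121 had scores of 0.67 to 0.89 and were up to 9.55 kb wide. In replicate 2, 6 regions from 1468091 to 1497176 had scores of 0.60 to 0.91 and were 1.52 to 2.89 kb wide. The replicate set kept 2 separate regions at the start, with scores of 0.89 and 0.58, and joined the rest to the first block in 1 region of 48.6 kb, from 1474396 to 1522986, at a score of 1.47 (2.77-fold, 2.70 to 2.84). That single region overlapped 4 regions of replicate 1 and 5 of replicate 2. Within the part of the interval ahead of the break, 91.2% of bases were covered in replicate 1 and 61.6% in replicate 2. Beyond the break the shares were 91.3% and 88.5%, so the replicates differed mainly in the part ahead of it.

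Coverage, the share of bases inside enriched regions, was higher in each locus than in the 200 kb on both sides combined. The Eip75B interval was 47.3% covered in both replicates, while its left flank, the side of lower coordinates, had 15.5% in replicate 1 and 13.8% in replicate 2, and its right flank 7.08% and 8.23%. The locus exceeded its flanks by 36.2 ± 0.2 percentage points (SD, n = 2). At br the interval was 86.1% covered in replicate 1 and 69.3% in replicate 2. Its left flank had 28.97% in replicate 1 and 23.5% in replicate 2, and its right flank 24.0% and 21.8%. This gave a difference of 53.1 ± 9.1 points (SD, n = 2). In Eip74EF, 36.3% of bases were covered in replicate 1 and 38.0% in replicate 2. The left flank of this locus was close behind, with 32.04% and 31.6%, and the right flank had 14.5% and 13.7%. The locus exceeded its flanks by 14.2 ± 1.6 points (SD, n = 2), the smallest difference of the 3 loci. The right flank of Eip74EF and the left flank of Eip75B share 90.001 kb of 3L, so these flanks are not independent.

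**Figure D2:**
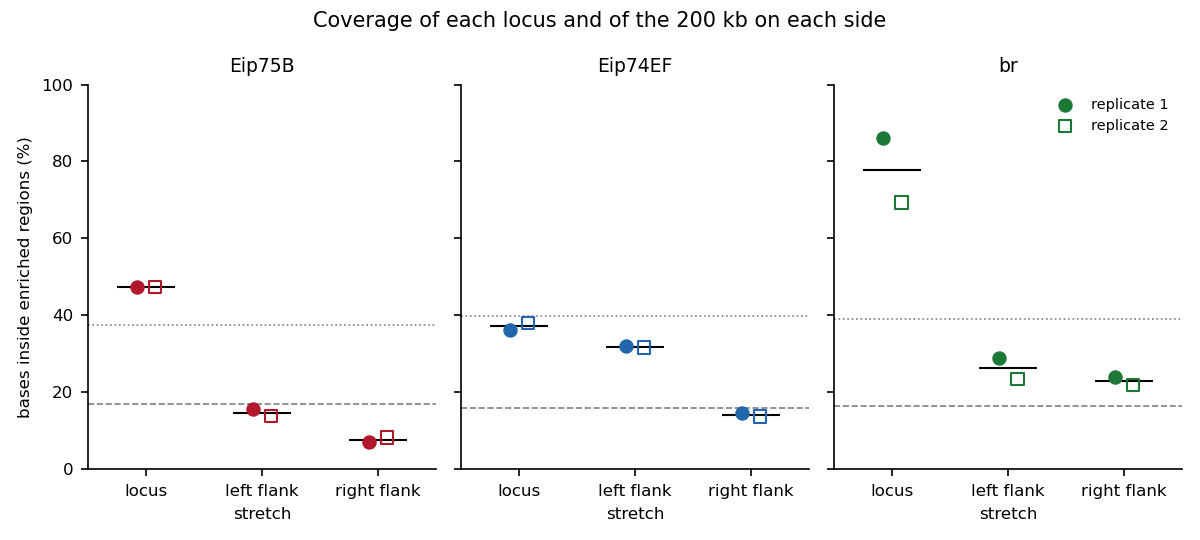
Percentage of bases inside enriched regions in each locus, its left flank and its right flank (200 kb each), for replicate 1 (filled circles) and replicate 2 (open squares), with their mean as a bar. The dashed and dotted grey lines are the median and the 90th percentile of windows of the same length on the main arms (mean of both replicates); br, at 86.1% and 69.3%, lies far above both lines, and Eip74EF, at 36.3% and 38.0%, close to the upper one.

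Windows of the same length along 2L, 2R, 3L, 3R, 4 and X, moved in steps of 10 kb and free of these loci, give the scale for these shares as a description. Of 11920 windows of the length of the br interval, 0 were as covered as br in replicate 1 and 15 in replicate 2. The Eip75B share was reached by 3.70% of 11898 windows in replicate 1 and by 2.05% in replicate 2. For Eip74EF the figures were 16.4% of 11929 windows in replicate 1 and 9.56% in replicate 2. Overlapping windows are not independent, and the loci were picked with their coverage known.

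The score of occupied bases did not set Eip75B and Eip74EF apart from their flanks as coverage did. Averaged over covered bases, the score was 1.31 at Eip75B against 1.27 in its flanks in replicate 1, and 1.45 against 1.41 in replicate 2. For Eip74EF it was 1.18 against 1.15 in replicate 1, and 1.42 against 1.33 in replicate 2. These differences were 0.04 and 0.06 on the log2 scale as means of the replicates. They turned negative, to −0.50 and −0.12, where only the higher-scoring 50% of regions were kept. That cut was made on the score itself, so the change of sign cannot tell whether score sets these loci apart. In the replicate set the differences were 0.11 at Eip75B and 0.16 at Eip74EF. At br covered bases averaged 1.57 against 1.25 in replicate 1, and 1.74 against 1.25 in replicate 2, a difference of 0.40 ± 0.12 (SD, n = 2), which was 0.23 with flanks of 100 kb. Averages over bases give wide regions more weight. With medians over regions, each counted once, the difference was negative at all 3 loci, −0.26 at br, −0.16 at Eip75B and −0.19 at Eip74EF.

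Regions of similar width, within a factor of 1.5 either way and outside the loci, served as the scale for single scores, since width and score are related across a list. The long block of Eip75B had only 3 such regions in each replicate. Its score was above 2 of the 3 in replicate 1 and above all 3 in replicate 2. Among the 20 regions nearest in width it was at the 45.0 percentile in replicate 1 and at the 50.0 percentile in replicate 2, so its place depends on which widths are compared. The second block of br was above 7 of 9 similar regions in replicate 1 and above 12 of 14 in replicate 2. The first br block exceeded 25 of 30 in replicate 1 and 45 of 62 in replicate 2. The block of Eip74EF went the other way, below the median of its peers: 90 of 131 similar regions scored higher in replicate 1 and 40 of 69 in replicate 2. Of all members, 9 of 22 in replicate 1 and 7 of 20 in replicate 2 were above the median of regions of similar width, and so were 12 of 20 in the replicate set. For members just under 2 kb the peers include regions above 2 kb, where scores step up, as given below. These counts thus depend on the widths compared, and they were not computed with narrower ranges of width.

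**Figure D3:**
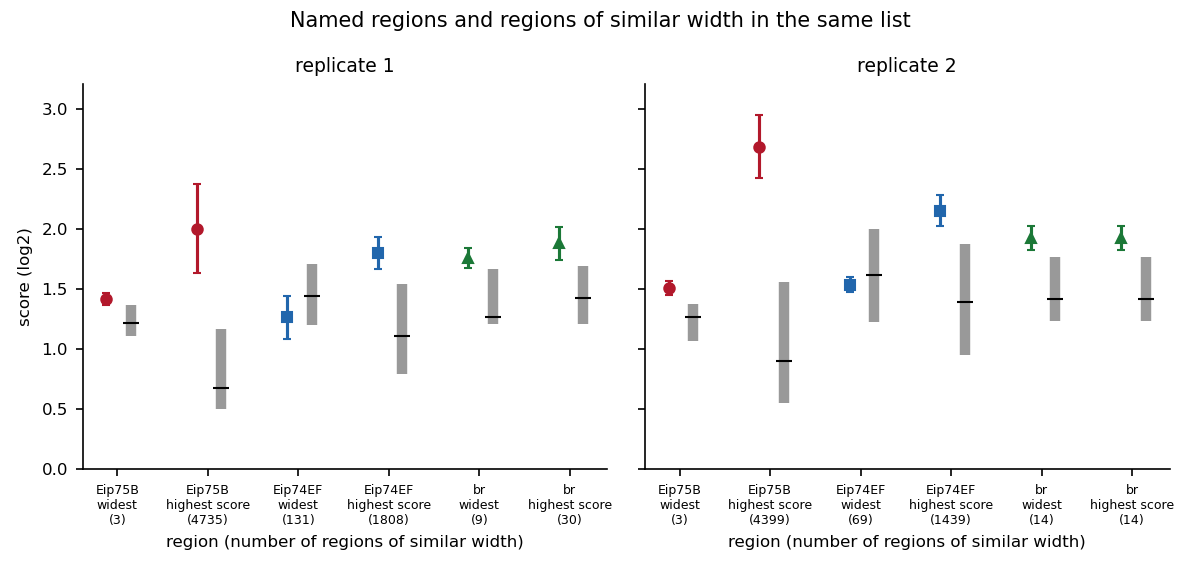
Score (log2) of the widest and of the highest-scoring region of each locus in replicate 1 and replicate 2, with the 95% counting interval, beside regions of similar width in the same list (grey bar from the lower to the upper quartile, black line at the median, number of regions in brackets). The narrow region of Eip75B, picked as the highest score of its interval, stands at 2.00 and 2.68, above the upper quartile of its peers. The block of Eip74EF, at 1.26 and 1.54, lies below the median of its peers.

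The highest-scoring regions of Eip75B and Eip74EF were in the upper part of their peers' scores in both replicates. Each was picked as the highest score of its interval, so a high place follows at least in part from that choice. The choice was among 9 regions at Eip75B in replicate 1 and 5 in replicate 2, and among 6 and 7 at Eip74EF. At Eip75B the region of 2.17 kb was at the 92.0 percentile of 4735 similar regions in replicate 1 and at the 95.6 percentile of 4399 in replicate 2. The region of 4.78 kb at Eip74EF was at the 85.3 percentile of 1808 in replicate 1 and at the 86.4 percentile of 1439 in replicate 2. The Eip75B value depends on which widths are compared, and scores in these lists step up near 2 kb. In replicate 1, regions of 1.5 to 2 kb had a median score of 0.45 and regions of 2 to 2.5 kb a median of 0.90. In replicate 2 these medians were 0.42 and 1.12. Among the 20 regions nearest in width, the Eip75B region was at the 80.0 percentile in replicate 1 and at the 85.0 percentile in replicate 2. In rank over the whole list it was 581 of 7517 in replicate 1 and 260 of 6487 in replicate 2.

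**Figure D4:**
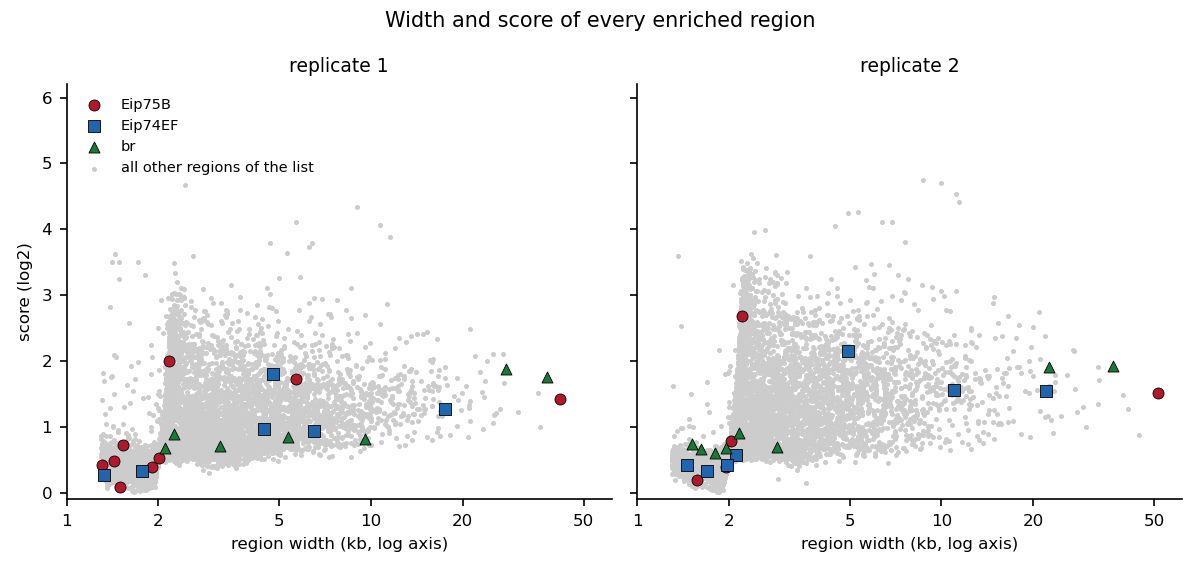
Width (kb, log axis) and score (log2) of every enriched region in replicate 1 and replicate 2, with the regions of Eip75B (red circles), Eip74EF (blue squares) and br (green triangles) over all others (grey). Scores step up near 2 kb, the blocks of Eip75B and br lie at the far right with scores of 1.42 to 1.92, and the narrow region of Eip75B stands at 2.00 and 2.68.

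Breaks, stretches of at least 1 bp between neighbouring regions inside an interval, took up more of the Eip75B and Eip74EF intervals than of br. Open in both replicates were 6 breaks at Eip75B, which summed to 59.8 kb, and 4 at Eip74EF, which summed to 50.1 kb. At br there were 5, which summed to 7.77 kb. The longest break of Eip75B, 31.0 kb, lay from 18020115 to 18051128. In replicate 1 it lay between regions with scores of 0.47 and 0.72, and in replicate 2 it ran on to the narrow strong region. At Eip74EF the longest, from 17584697 to 17604235, measured 19.5 kb. The longest of these at br was the one of 5.62 kb between its blocks, and 3 of its 5 shared breaks were under 1 kb. Among all breaks of replicate 1, which had a median of 3883 bp, the longest of Eip75B was at the 88.4 percentile and the one between the br blocks at the 57.9 percentile. None of these 3 breaks reached the 90th percentile of the list, which was 34.97 kb in replicate 1 and 40.1 kb in replicate 2.

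Overlap of the replicates by at least 1 bp and by shared bases was at or above that of the lists as a whole, while the share of regions matched 1 to 1 was below it. Of the replicate 1 members 20 of 22 overlapped a replicate 2 region, where 80.8% of all replicate 1 regions did. Of the replicate 2 members 19 of 20 overlapped replicate 1, where the background was 93.5%, so that share is near it. By bases, 90.6% of what either replicate covered at Eip75B was covered in both, and 87.4% at Eip74EF. At br it was 75.3%, with 19.3 kb in replicate 1 alone and 2.56 kb in replicate 2 alone. The share over the main arms was 73.4%. Windows with at least 25% of their bases in either list had a median of 75.3%. Among them Eip75B (96.0 percentile) and Eip74EF (88.6) were high and br (50.1) was in the middle. These windows did not leave out the loci and were not matched for coverage. At br, 88.6 kb of the interval were covered in either list, so its place among windows of like coverage is not known. The members without a partner scored below the median of their list. At Eip75B there were 2 in replicate 1, with scores of 0.42 and 0.72. At the edge of Eip74EF there was 1 in replicate 2, with a score of 0.32. That with 0.72 was at the 68.6 percentile of regions of similar width.

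Scores of the members matched 1 to 1 between the replicates ran along the common trend. There were 10 such pairs, 4 at Eip75B, 3 at Eip74EF and 3 at br, out of 4851 in the lists. They made up 45.5% of the members in replicate 1, where the share over all its regions was 64.5%, and 50.0% in replicate 2, where it was 74.8%. Deviations of replicate 2 minus replicate 1 from the linear trend over all pairs ranged from −0.18 to 0.29 on the log2 scale, where the SD over all pairs was 0.22. Of the 10, 1 deviated by more than its 95% counting error, where 10.3% of all pairs did. It was the second block of br, which deviated by −0.130 with an error of 0.126, just beyond that limit. The error is an upper limit, since reads were recovered in lowest terms only. The largest deviation, 0.29, belonged to the narrow region of Eip75B, with an error of 0.46. The other blocks had no 1-to-1 partner: the Eip75B block of replicate 2 overlapped 3 regions of replicate 1, the Eip74EF block of replicate 2 overlapped 2, and the first br block of replicate 1 overlapped 2 regions of replicate 2.

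**Figure D5:**
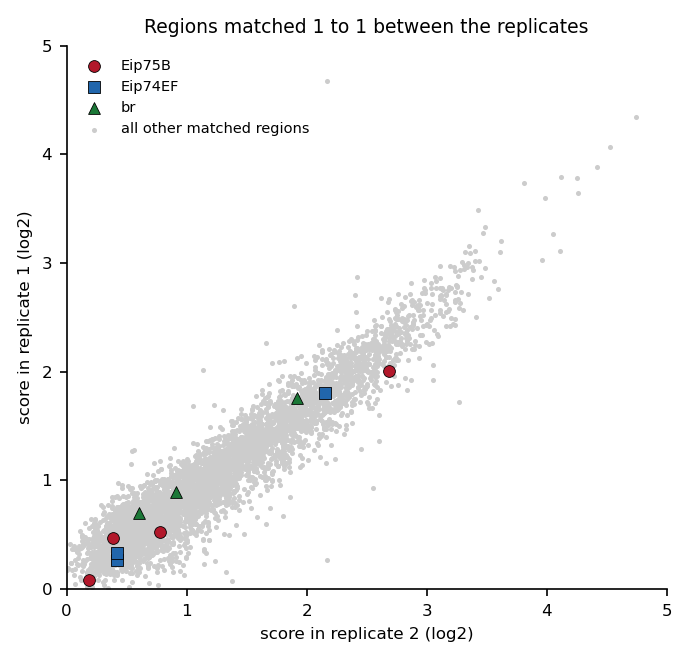
Score (log2) in replicate 2 (horizontal axis) and replicate 1 (vertical axis) of all 4851 regions matched 1 to 1 (grey), with the 10 matched regions of Eip75B, Eip74EF and br in colour. The 10 lie within the cloud of all pairs, from scores of 0.19 and 0.08 up to 2.68 and 2.00 at Eip75B.

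Some ends of the intervals lay in gaps of occupancy, and others were crossed by a member. In each list a member crossed the low-numbered end of br and the high-numbered end of Eip74EF. In replicate 2 and the replicate set a member also crossed the low-numbered end of Eip74EF. Nearest outside Eip75B in replicate 1 were a region 35.8 kb before it with a score of 0.50 and 1 at 14.5 kb after it with 0.28, next to outermost members with 0.39 and 0.52. In replicate 2 a region with 0.28 lay only 1498 bp after it. Around br in replicate 1 the nearest lay 57.0 kb before the interval, with 0.99, and 15.5 kb after it, with 1.08. The outermost members there had 0.89 and 1.76. The nearest region before Eip74EF, 11.95 kb away in replicate 1, had a score of 2.02 there and its counterpart 2.42 in replicate 2. Both were above every member of that interval in the same list. The first member of the interval had 0.93 in replicate 1 and 0.32 in replicate 2. After Eip74EF the nearest lay 3.98 kb away with 0.47 in replicate 1, and 16.1 kb away with 1.90 in replicate 2.

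At 1 place of Eip75B the lists disagreed in sign. The region from 18057065 to 18058563 in replicate 1 was called enriched in both replicates, at scores of 0.08 and 0.19. The replicate set listed the same place, from 18056860 to 18058714, as depleted, at −0.04 with a 95% counting interval of −0.25 to 0.17. All 3 scores are near 0, and levels are not comparable between lists.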

How the data were processed

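The submitters' processing notes name Bowtie 0.12.7, a read aligner. The authors deposited 1 list of regions for each ChIP replicate and 1 for the replicate set, on FlyBase release 5 per the file headers. The labels give input replicate 2 as the input of ChIP replicate 1, and input replicate 1 as that of ChIP replicate 2. How regions were called is not given in the sources used here. Each deposited region has 1 log2 score, whose make-up is not stated. All 7524, 6489 and 8320 scores equalled the log2 of 1 whole number over another after a list-wide constant (−0.08, 0.27 and 0.09) was taken off, with a relative tolerance of 1e-11 and denominators up to 20000. The whole numbers are read as ChIP and input reads in lowest terms, and so are lower limits.

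Python 3.11.15, numpy 2.4.6, pandas 2.3.3 and matplotlib 3.10.9 were used, and the code was tested on simulated data. Depleted regions were not counted as members. A shared region overlaps the other list by at least 1 bp. The members, lists and settings were chosen with earlier results of these data known. Named in full were the widest and the highest-scoring region of each locus and list, and other regions where a break, an end or the replicate set is described, chosen after their values were seen. A planned list of ecdysone pathway genes was not analysed here, because gene positions on release 5 were not used.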

Additional observations from a re-analysis of the deposited data

How the results depend on the processing

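Values were judged by the SD between replicates, counts by a factor of 1.5 and shared bases by 5 percentage points, and at Eip75B, where the replicates are nearly equal, small shifts pass that limit. Among 116 values under other settings, 73 kept within these limits, 38 did not and 5 changed sign. With 2 replicates, leaving 1 out shifts a mean by less than their SD by construction. For values judged by the SD, those settings thus say nothing about stability. They are included in the counts above, so the number kept within the limits overstates stability. For numbers of regions and breaks, judged by the factor of 1.5, the outcome was not fixed, and all stayed within the limit when 1 replicate was left out. Values are means of the replicates unless a list is named, and the cause of the changes was not tested except where fewer regions remain by construction.

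In the higher-scoring 50% of each list coverage was 41.2% at Eip75B and 31.7% at Eip74EF, or 34.7 and 16.1 points above the flanks. The score of covered bases minus that of the flanks turned to −0.50 and −0.12, where the cut was made on the same score that is compared. The mean number of regions per replicate fell to 2.5 at Eip75B, 3.5 at Eip74EF and 3.5 at br, and breaks open in both replicates to 1, 2 and 1. Regions overlapping the other replicate, counted over both replicates, fell to 5, 7 and 4. All regions left at Eip75B and Eip74EF thus overlapped, while at br only some did. The share over all higher-scoring regions was not computed. In the replicate set list coverage was 48.6%, 41.0% and 92.3% at Eip75B, Eip74EF and br, br lay 64.0 points above its flanks, and the score difference was 0.11 at Eip75B and 0.16 at Eip74EF. Flanks of 100 kb gave coverage differences of 33.0, 10.1 and 64.5 points and score differences of 0.054 at Eip75B and 0.23 at br. Flanks of 400 kb gave 34.2 points and 0.10 at Eip75B. Medians over regions gave −0.16, −0.19 and −0.26. With breaks of at least 1 kb, br had 2. A reciprocal overlap of 50% lowered the members overlapping the other replicate, counted over both replicates. They fell from 12 to 10 at Eip75B, from 12 to 8 at Eip74EF and from 15 to 8 at br. The share over all regions was not computed at this overlap.

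Among the 20 regions nearest in width, the widest region of Eip75B was at the 47.5 percentile and the highest-scoring regions of Eip75B, Eip74EF and br at 82.5 each. Within a factor of 1.2, the widest and the highest-scoring region of br were at 100 and 88.5. The highest-scoring region of br was its first block in replicate 1 and its second, also the widest, in replicate 2. Its mean percentiles therefore mix different blocks, here 76.9 in replicate 1 and 100 in replicate 2. On the same arm, the widest region of Eip74EF was at 45.3, its highest-scoring region at 85.1, and both of br at 100; the widest region of Eip75B had no region of similar width on its arm, and its highest-scoring region was at 94.4. Very few regions are as wide as the blocks of Eip75B and br, so their percentiles are coarse. The widest region of br had 1 region of similar width on its arm in replicate 1 and 2 in replicate 2. Within a factor of 1.2 it had 2 on any arm in replicate 1 and 5 in replicate 2. No paired analysis was possible because only the Pol II libraries come with regions. Start sites and pathway genes were not run.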
